A study of Mus musculus with 4 samples.

Results

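Interferon-stimulated genes are the genes that cells switch on after an interferon binds its receptor, and 33 of them were followed here by name in RNA sequencing counts. The cells were Jurkat, an established line from a human T cell leukaemia. All 33 names matched 1 row each of the 58735 gene rows. The members are a list of symbols, which no value enters by rule, but the list was drawn up with earlier results of these libraries known. The groups were 2 wild-type libraries and 2 libraries labelled as knocked out for MATR3 with CRISPR-Cas9, the gene of matrin 3, a nuclear matrix protein that binds RNA and DNA. The labels name no interferon, virus or other stimulus in either group, and whether the knockout cells were 1 clone or a pool was not stated in the labels.

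Interferons act through receptors bound to JAK kinases, which phosphorylate STAT factors. ISGF3, a complex that holds STAT2 and IRF9, then binds interferon response elements in the promoters of antiviral genes. Many cells also transcribe part of this set without added interferon, and some members, among them IFIT2, IFIT3 and ISG15, can be switched on directly by IRF3 after RNA or DNA is sensed. The members fall into families. IFIT proteins bind viral RNA, OAS enzymes make the 2-5A messenger that activates RNase L, MX proteins are dynamin-like GTPases that block viral nucleocapsids, and IFITM proteins restrict virus entry at membranes.

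Total counts ranged from 15008554 to 17477643 per library. The row of MATR3 (ENSG00000015479) held 19 and 9 wild-type reads against 42 and 61 in the libraries labelled knockout, and an overlapping second row (ENSG00000280987) held 5, 1, 2 and 2, so these rows do not check the label and every direction below is that of the libraries labelled knockout. T cell markers were present in both groups, but 12 of 13 were lower in the libraries labelled knockout and 0 were higher. Their summed level was 3402 to 3657 CPM (counts per 1000000 reads, scaled by TMM) in wild-type against 1439 to 1476 CPM in the others. Of 14 myeloid markers 13 were tested and all 13 were higher, although 7 of the 13 passed the expression filter only through the libraries labelled knockout and could be counted only as higher, with a summed level of 35.1 to 38.6 CPM in wild-type, where ELANE and CSF3R had 0 reads, and 5681 to 5792 CPM in the others. Of 6 epithelial markers 3 were tested and higher, at 11.5 to 13.9 and 124 to 126 CPM in sum, with EPCAM and KRT19 at 0 reads in all libraries. Of 7 plasmacytoid dendritic cell markers, 2 were higher and 2 lower, with CLEC4C at 0 reads throughout. Summed levels of 6 B cell, 6 natural killer cell, 6 fibroblast and 7 erythroid and megakaryocyte markers stayed between 2.18 and 28.6 CPM in every library, and MS4A1, KLRF1, COL1A2 and HBB had 0 reads. In these lists 3, 2, 2 and 1 genes were tested. Of them 2, 1, 1 and 0 were higher, and 1, 1, 0 and 0 lower. Among all genes tested 33.7% were higher and 32.3% lower, and lists this small cannot be told from these shares. Among B cell markers PAX5 (0 and 0 wild-type reads against 53 and 32) and BLNK (0 and 2 against 11 and 11) were higher. CD79A was lower (log2 fold change -1.36). Of the others called, NKG7 (0.30) and PDGFRB (3.04) were higher and NCAM1 (-2.36) lower. Several of these calls, too, came from genes that passed the filter in 1 group alone. Mitochondrial genes took 4.92% to 5.31% of wild-type counts and 9.33% to 9.49% of the others. The part of these markers and of RNA quality in the results below was not tested, and in bulk RNA fewer cells of a type and less RNA per cell cannot be told apart.

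The interferon-stimulated genes moved in both directions, as all genes tested did. Direction varied between families and within them, and the difference between families was not tested. Of the 33 genes 31 had enough reads to be tested. By edgeR's quasi-likelihood test at an adjusted p of 0.05, 13 were higher and 10 lower in the libraries labelled knockout, and 8 did not pass. That is 74.2% called, against 66.0% of all 15294 genes tested. The share higher was 41.9% against 33.7% of all genes, and the share lower was 32.3% against 32.3%. At 2-fold or more there were 8 higher members (25.8%, against 15.6% of all genes) and 4 lower members (12.9%, against 10.7%). The median log2 fold change of the 31 was -0.05, and that of all genes tested was 0.02. Over genes that passed the expression filter in both groups, the medians were -0.24 for 29 members and -0.03 for 13149 genes. IFIT3 and IFI44 passed the expression filter only through their reads in the libraries labelled knockout, so these 2 could be counted only as higher. DESeq2's Wald test counted 8 higher members (25.8%, against 28.9% of all genes) and 10 lower (32.3%, against 27.2%), so the larger share of higher members than of all genes was not seen with it. Whether replicates were separate cultures is not stated, and p-values here then measure no more than the spread between these libraries, which may be technical. Groups said below not to overlap are a description of 2 against 2 libraries. The share of all genes without overlap is not given beside it, and some members that did not pass show it too.

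**Figure D1:**
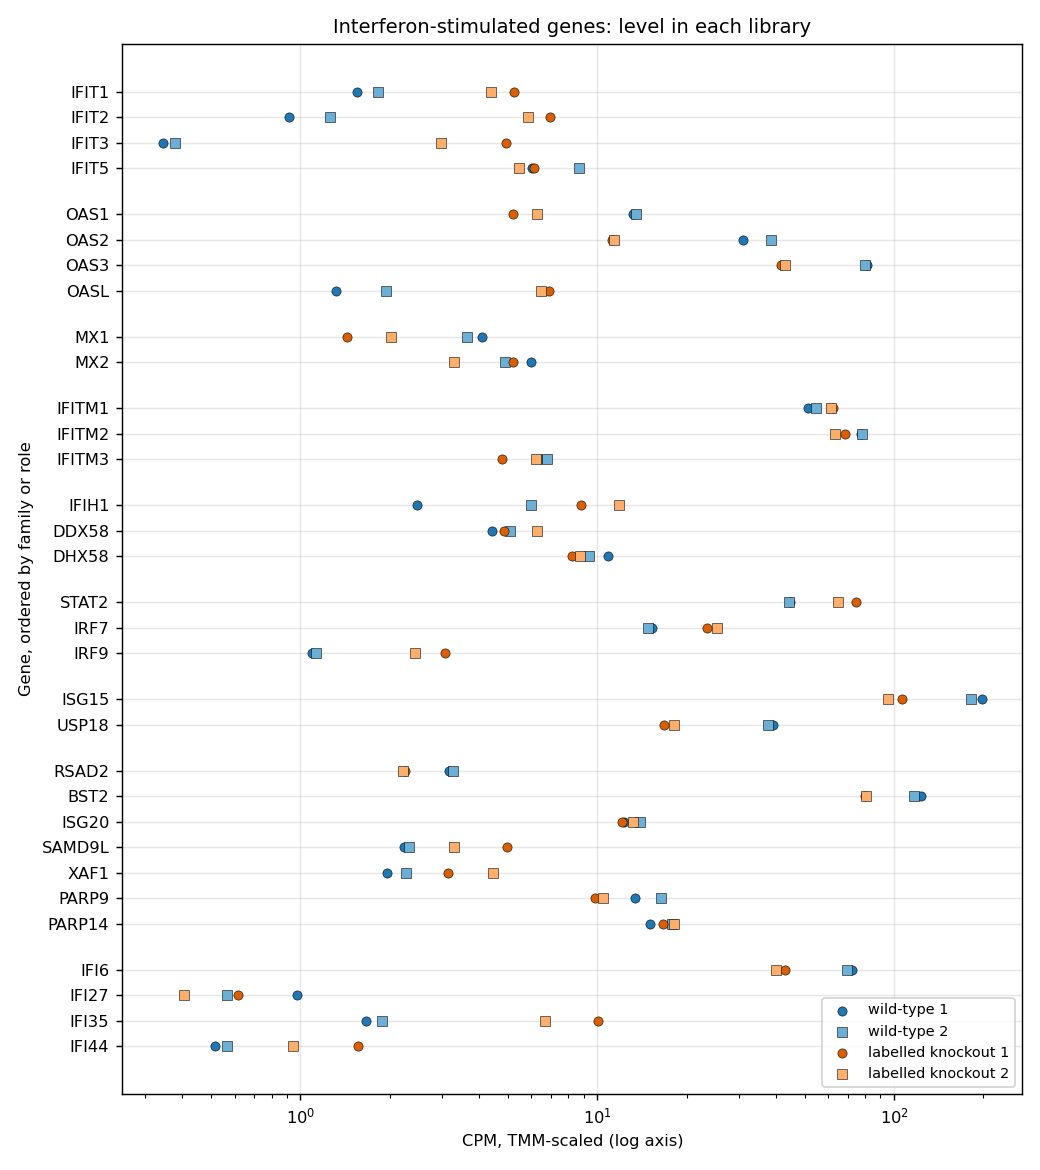
Level of each gene in each of the 4 libraries, in TMM-scaled CPM on a log axis, with genes ordered by family or role and IFI44L left out because it had 0 wild-type reads. IFIT1, IFIT2, IFIT3, OASL and IFI35 lie to the right in both libraries labelled knockout, and OAS1, OAS2, OAS3, ISG15 and USP18 lie to the left.

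IFIT1, IFIT2 and IFIT3 rose together while the fourth, IFIT5, did not pass the test. IFIT2, whose product binds RNA in complex with other IFIT proteins, stood at 0.918 and 1.26 CPM in wild-type and at 6.96 and 5.87 CPM in the libraries labelled knockout. IFIT3, a partner that stabilises IFIT1, stood at 0.344 and 0.377 CPM and at 4.91 and 2.97 CPM. Both were low in wild-type and the groups did not overlap. The log2 fold changes were 2.56 for IFIT2 (SE 0.304, adjusted p = 1.15e-11) and 3.42 for IFIT3 (SE 0.441, adjusted p = 1.67e-10). The wild-type level of IFIT3 rests on 6 reads in each library. IFIT1, which recognises viral RNA lacking a methylated cap, stood at 1.55 and 1.82 CPM and at 5.25 and 4.38 CPM (log2 fold change 1.51, SE 0.300, adjusted p = 8.4e-06). IFIT5, which binds RNA with a triphosphate end, stood at 6.03 and 8.67 CPM in wild-type and at 6.14 and 5.46 CPM in the others. Its groups overlapped, with a log2 fold change of -0.34 that did not pass (SE 0.216, adjusted p = 0.164). Without wild-type replicate 1 it was -0.56 and passed (adjusted p = 0.0307).

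The share of IFIT5 in the family did not overlap between the groups. IFIT5 gave 68.2% (95% Wilson interval 60.5% to 75.0%) and 71.5% (64.8% to 77.4%) of the family's reads in the wild-type libraries. In the libraries labelled knockout it gave 26.4% (22.0% to 31.3%) and 29.2% (24.2% to 34.9%). These intervals cover counting error only. Per length, in RPKM (reads per kilobase of gene and per 1000000 reads, from the deposited gene lengths), IFIT5 was the highest member in wild-type at 1.83, against 0.365 for IFIT1, 0.265 for IFIT2 and 0.137 for IFIT3. In the libraries labelled knockout the means were closer, at 1.45 for IFIT5, 1.04 for IFIT1, 1.56 for IFIT2 and 1.49 for IFIT3. The ranges of IFIT2, IFIT3 and IFIT5 over the 2 libraries overlapped there, as did those of IFIT1 and IFIT3. All 4 genes lie on chromosome 10, between 89283694 and 89421001 in the coordinates of the deposited table (the genome build was not stated in the labels). LIPA, a lysosomal lipase gene on the other strand, has a row that spans IFIT1, IFIT2 and IFIT3 whole and does not reach IFIT5. Without a known strand setting, reads of LIPA and of these 3 genes cannot be told apart where they overlap. LIPA held 1480 and 1521 wild-type reads and 871 and 869 in the others, and was lower (log2 fold change -0.61). The part of LIPA reads in the values of the 3 IFIT genes was not tested.

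The OAS family divided, with 3 genes lower and 1 higher. OAS1, OAS2 and OAS3, which make 2-5A when they meet double-stranded RNA, sit side by side on chromosome 12 (112906777 to 113011723) and all fell. OAS2 stood at 31.0 and 38.4 CPM in wild-type and at 11.3 and 11.4 CPM in the libraries labelled knockout (log2 fold change -1.61, SE 0.144, adjusted p = 1.2e-16). OAS3, the member with the highest level, stood at 81.3 and 79.6 CPM and at 41.5 and 43.0 CPM (log2 fold change -0.93, SE 0.0880, adjusted p = 1.61e-15). OAS1 stood at 13.2 and 13.5 CPM and at 5.18 and 6.27 CPM (log2 fold change -1.22, SE 0.193, adjusted p = 5.94e-08). For all 3 genes both wild-type libraries were above both of the others. OASL, an OAS-like protein without 2-5A synthesis that acts with RIG-I, lies apart on the same chromosome (121019111 to 121039242) and rose. It stood at 1.32 and 1.95 CPM in wild-type and at 6.89 and 6.47 CPM in the others (log2 fold change 2.04, SE 0.277, adjusted p = 9.76e-10). The summed level of OAS1, OAS2 and OAS3 averaged 129 ± 4.27 CPM (SD, n = 2) in wild-type and 59.3 ± 1.95 CPM (SD, n = 2) where labelled knockout. Per length the order in wild-type was OAS3 at 9.75, OAS2 at 5.54, OAS1 at 2.70 and OASL at 0.465 RPKM. In the libraries labelled knockout OAS3 was still highest at 5.12 RPKM, OASL at 1.90 and OAS2 at 1.81 RPKM lay close, with OASL above OAS2 in both libraries, and OAS1 was lowest at 1.16 RPKM. OASL gave 1.04% and 1.46% of the family's wild-type reads and 10.6% and 9.64% of those in the others. An antisense row that spans most of OAS1 and all of OAS2 and OAS3 had 0 reads in every library.

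**Figure D2:**
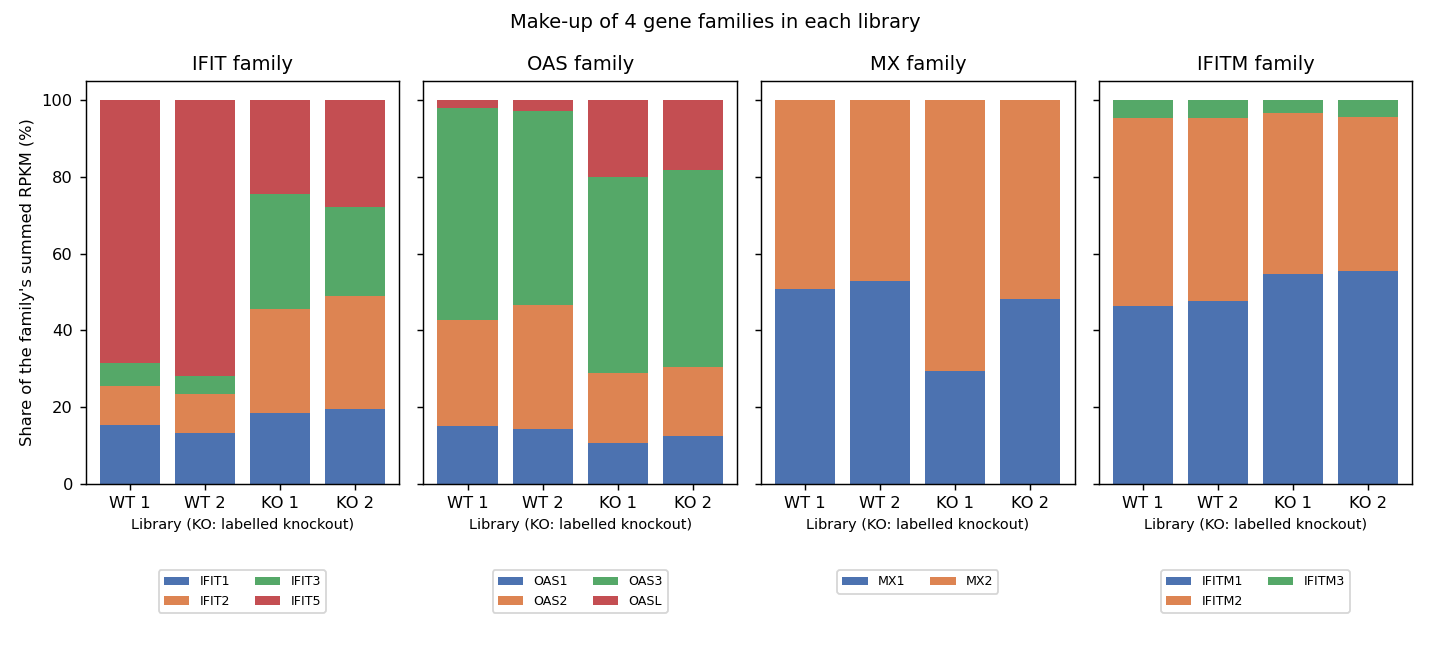
Share of each family's summed RPKM (percent) taken by each gene, 1 bar per library, with the 2 wild-type libraries on the left of each panel and the 2 labelled knockout (KO) on the right. IFIT5 takes 68.5% and 71.9% of its family in wild-type against 24.6% and 28.0% in the others. The IFITM make-up shifts less, with IFITM1 at 46.3% and 47.5% in wild-type against 54.6% and 55.5% in the others.

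The MX pair were both low, and 1 of the 2 passed. MX1, which acts against influenza and many other viruses, stood at 4.08 and 3.64 CPM in wild-type and at 1.43 and 2.02 CPM in the libraries labelled knockout. The groups did not overlap, and MX1 fell by 1.16 on the log2 scale (SE 0.315, adjusted p = 0.000922). MX2, a restriction factor of HIV-1, stood at 5.97 and 4.90 CPM and at 5.18 and 3.30 CPM. Its groups overlapped, with replicate 1 labelled knockout above wild-type replicate 2, and the log2 fold change of -0.36 did not pass (SE 0.243, adjusted p = 0.187). Per length the pair were alike in wild-type, at 0.448 RPKM for MX1 and 0.417 for MX2. They adjoin on chromosome 21 (41361943 to 41459214).

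The IFITM family had small changes, with IFITM1 and IFITM2 abundant and IFITM3 low. IFITM1, found mainly at the cell surface, stood at 51.3 and 54.5 CPM in wild-type and at 62.4 and 61.4 CPM in the others (log2 fold change 0.23, SE 0.0892, adjusted p = 0.021). IFITM2, an endosomal member, stood at 77.6 and 78.1 CPM and at 68.6 and 63.2 CPM (log2 fold change -0.24, SE 0.0831, adjusted p = 0.00848). IFITM3, the member best known for blocking influenza virus, stood at 6.49 and 6.78 CPM and at 4.78 and 6.20 CPM. The libraries of each IFITM gene did not overlap between groups, but the log2 fold change of IFITM3, -0.27, did not pass (SE 0.218, adjusted p = 0.271). The 3 genes lie on chromosome 11 (307631 to 327537). The IFITM2 row holds the whole span of IFITM1 on the same strand, and the 3 genes are close copies, so how reads were split among them is uncertain. Non-coding rows with up to 31 reads a library overlap IFITM3. Summed over IFITM1 and IFITM2 the level was 129 and 133 CPM in wild-type against 131 and 125 CPM in the others, and the groups overlapped. With replicate 1 or replicate 2 labelled knockout left out, IFITM1 did not pass (adjusted p = 0.209 and 0.146), and neither did IFITM2 (adjusted p = 0.0533 and 0.267). IFITM1 also failed with no composition factor (adjusted p = 0.076) and with DESeq2 (adjusted p = 0.0604).

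Set side by side, the families gave medians of 2.04 for the 4 IFIT genes (1.51 without IFIT3, which passed the filter only where it is high), -1.07 for the 4 OAS genes, -0.76 for the 2 MX genes and -0.24 for the 3 IFITM genes on the log2 scale. Called genes were 3 higher and 0 lower for IFIT, 1 higher and 3 lower for OAS, 0 higher and 1 lower for MX, and 1 higher and 1 lower for IFITM. Of all genes tested 33.7% were higher and 32.3% lower, and families of 2 to 4 genes are too small to be told from these shares. The difference between families was not tested. Summed CPM per library was 8.84 to 12.1 for IFIT in wild-type and 18.7 to 23.3 where labelled knockout. It was 127 to 133 and 64.8 to 67.2 for OAS, 8.54 to 10.0 and 5.33 to 6.62 for MX, and 135 to 139 and 131 to 136 for IFITM. The groups did not overlap for IFIT, OAS and MX, and they overlapped for IFITM, which describes 2 against 2 libraries and is no test.

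**Figure D3:**
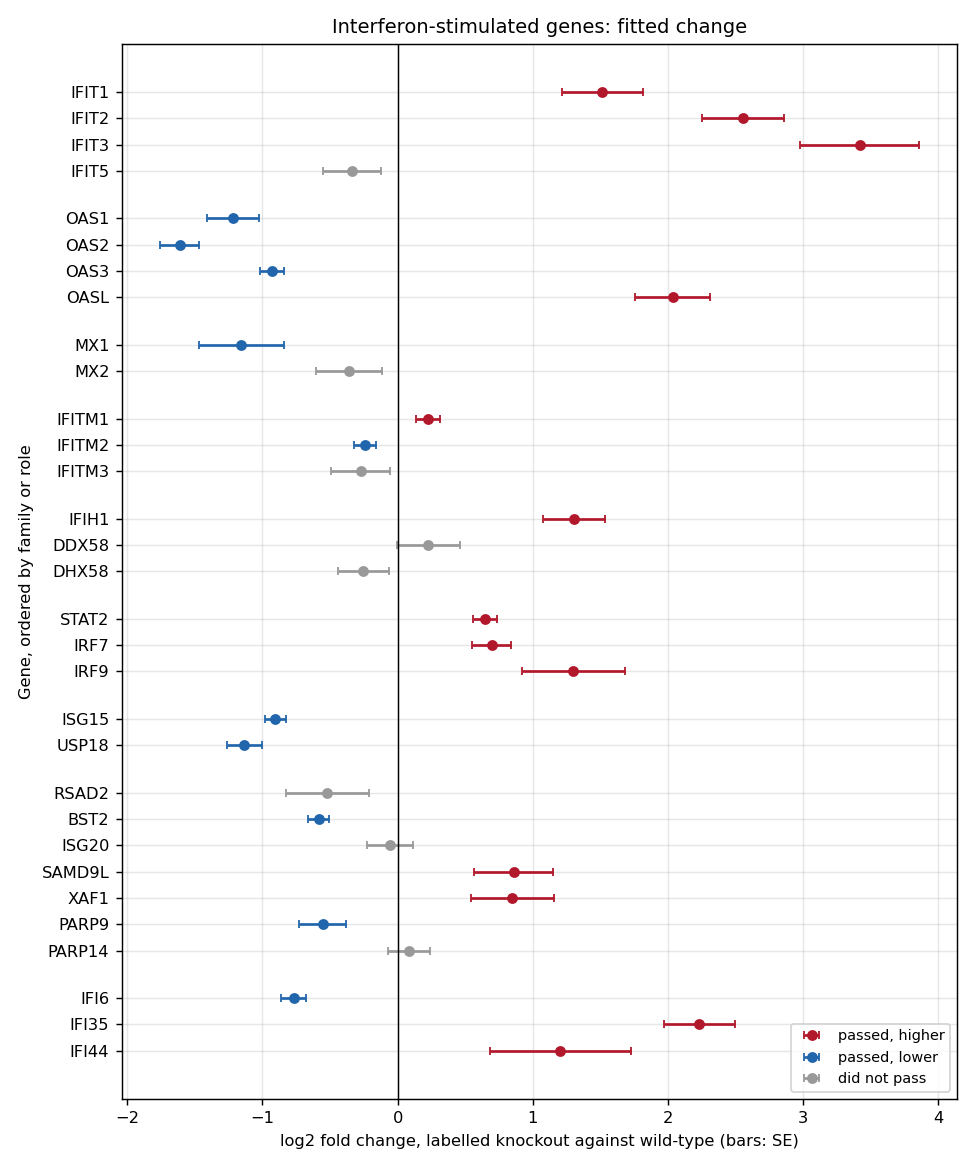
Fitted log2 fold change of the 31 tested genes, labelled knockout against wild-type, with bars of 1 SE and colour by the test at an adjusted p of 0.05. IFIT3 at 3.42 is the furthest right and OAS2 at -1.61 the furthest left, and the IFIT, OAS and IFITM families each have genes on both sides of 0.

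Other protein-coding genes within 1000000 bases of each locus were examined because the families are clustered. The counts below stand beside 33.7% higher and 32.3% lower among all genes tested, and were not tested against these shares. Around OAS1, OAS2 and OAS3, 9 of 19 neighbours were higher and 4 lower, with a median log2 fold change of 0.35, whereas the 3 OAS genes were lower. The tested neighbours closest to them, DTX1, a regulator of Notch, at -1.18 and RASAL1, a Ras regulator, at -1.35, were lower by about as much as the OAS genes. Around OASL, 6 of 34 were higher and 20 lower (median -0.34), whereas OASL was higher. Around the MX pair, 1 of 8 was higher and 4 lower, with a median of -0.77, close to the median of the pair itself. That median was -0.51 without replicate 2 labelled knockout and -1.15 over the 4 genes within 500000 bases. RIPK4, a kinase gene on the MX1 side of the pair, was at -2.44 and BACE2, on the MX2 side, at -1.98. Around the IFITM genes, 5 of 35 were higher and 23 lower (median -0.55). Around the IFIT genes, 3 of 7 were higher and 2 lower (median 0.13), and the median turned to -0.0054 without wild-type replicate 1 and to -0.045 without replicate 1 labelled knockout. The part of the surrounding region in the values of the MX and OAS genes was not tested.

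**Figure D4:**
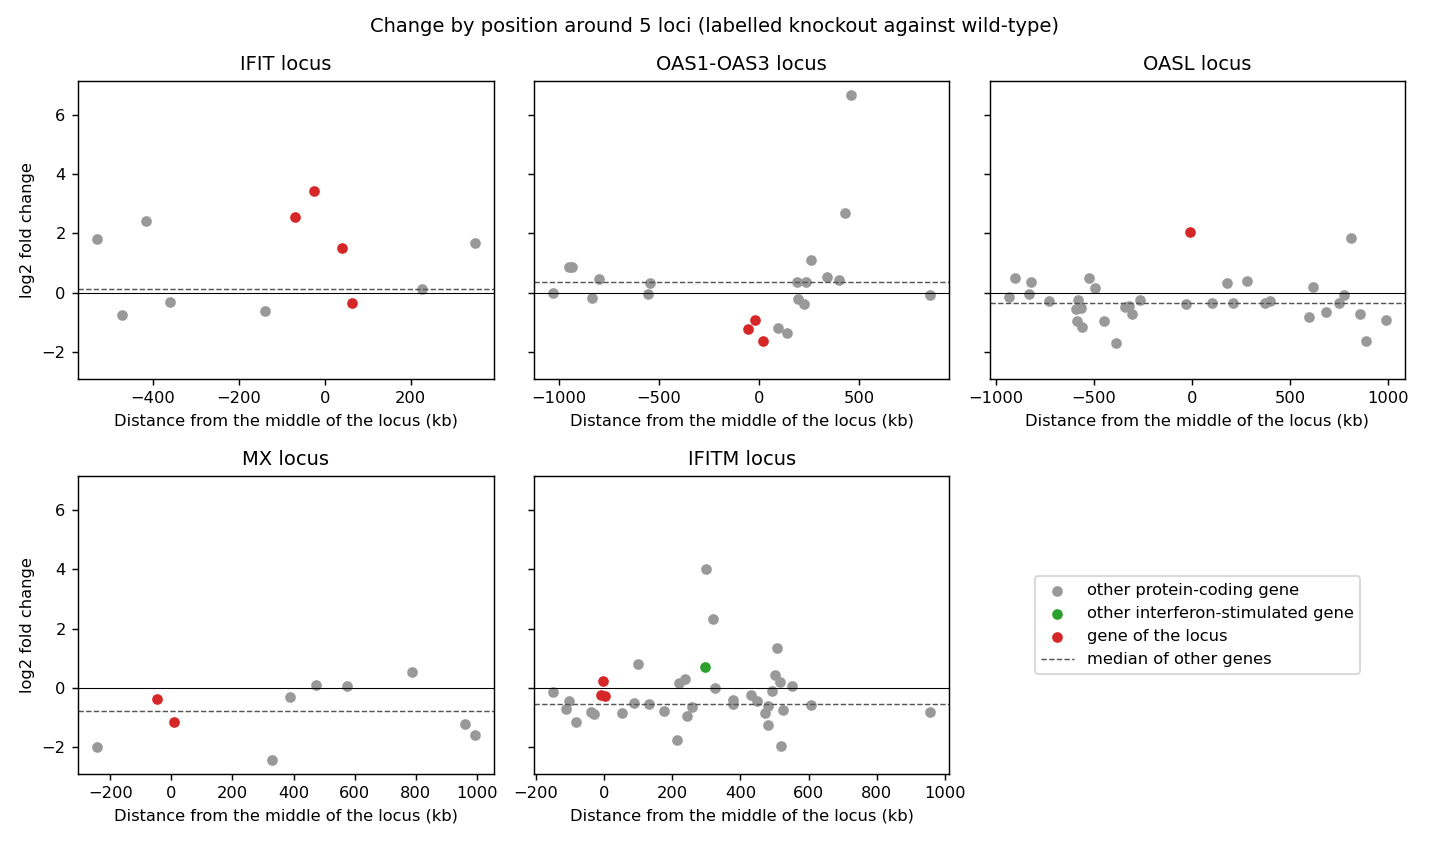
Log2 fold change of tested protein-coding genes against distance in kilobases from the middle of each of 5 loci, with the genes of the locus in red, IRF7 in green near the IFITM genes, and a dashed line at the median of the other genes. The MX pair lie near the line, while OAS1 to OAS3 lie below it with 2 close neighbours and OASL and 3 IFIT genes above it.

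The transcription factors among the members rose. STAT2, the ISGF3 subunit with the activating domain, stood at 44.8 and 44.3 CPM in wild-type and at 74.7 and 64.8 CPM in the libraries labelled knockout (log2 fold change 0.65, SE 0.0911, adjusted p = 2.72e-09). IRF7, the factor that drives interferon alpha genes, stood at 15.3 and 14.8 CPM and at 23.5 and 25.4 CPM (log2 fold change 0.70, SE 0.144, adjusted p = 1.95e-05). IRF9, the DNA-binding subunit of ISGF3, stood at 1.09 and 1.13 CPM and at 3.07 and 2.43 CPM. All 3 were higher in both libraries labelled knockout, and the log2 fold change of IRF9 was 1.30 (SE 0.380, adjusted p = 0.00198). With replicate 1 labelled knockout left out, IRF9 did not pass (adjusted p = 0.0726). Another protein-coding row on the same strand spans all of IRF9 and held 3 to 25 reads per library. How reads were assigned between that row and IRF9 is uncertain. IRF7 lies within the region around the IFITM genes in which most neighbours were lower.

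Of the RIG-I-like receptors, which sense viral RNA in the cytosol, 1 of 3 passed (33.3%, against 66.0% of all genes tested). IFIH1, which encodes MDA5, the sensor of long double-stranded RNA, stood at 2.47 and 5.97 CPM in wild-type and at 8.80 and 11.9 CPM in the others. The wild-type libraries differed from each other by more than 2-fold, yet both lay below the others. Its log2 fold change was 1.31 (SE 0.232, adjusted p = 9.82e-07), and it was 0.81 without wild-type replicate 1 and 2.05 without wild-type replicate 2. DESeq2 did not call it (adjusted p = 0.0609). DDX58, which encodes RIG-I, stood at 4.42 and 5.09 CPM and at 4.84 and 6.27 CPM, with overlapping groups (adjusted p = 0.393). DHX58, which encodes the regulator LGP2, stood at 10.9 and 9.36 CPM and at 8.25 and 8.77 CPM (log2 fold change -0.25, adjusted p = 0.233).

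ISG15 and its protease fell. ISG15, a ubiquitin-like modifier and the member with the highest level, stood at 197 and 181 CPM in wild-type and at 107 and 95.3 CPM in the libraries labelled knockout (log2 fold change -0.90, SE 0.0755, adjusted p = 5.24e-18). USP18, which removes ISG15 from proteins and dampens receptor signalling, stood at 39.1 and 37.7 CPM and at 16.8 and 18.2 CPM (log2 fold change -1.13, SE 0.127, adjusted p = 1.51e-12). Neither gene's groups overlapped. Of the 4 enzymes that attach ISG15, UBA7, the activating enzyme, went the other way, from 3.29 to 40.0 CPM on average (log2 fold change 3.60, SE 0.168, adjusted p = 6.59e-32). UBE2L6, the conjugating enzyme, fell from 145 to 76.4 CPM (log2 fold change -0.93). HERC5, the main ligase, was at -0.37 and HERC6, its relative, at 0.59, and both passed with all libraries. The HERC5 call was lost without wild-type replicate 2 or either library labelled knockout (adjusted p = 0.105, 0.0638 and 0.292). The HERC6 call was lost without wild-type replicate 1 or replicate 2 labelled knockout (adjusted p = 0.282 and 0.406).

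Among 7 further antiviral effectors, 2 were higher, 2 lower and 3 did not pass. That is 28.6% higher and 28.6% lower, against 33.7% and 32.3% of all genes tested. BST2, or tetherin, which holds budding virus at the membrane, stood at 123 and 117 CPM in wild-type and at 79.7 and 80.5 CPM in the others (log2 fold change -0.58, SE 0.0775, adjusted p = 4.68e-10). PARP9, an ADP-ribosyltransferase family member that pairs with DTX3L, stood at 13.4 and 16.5 CPM and at 9.82 and 10.5 CPM (log2 fold change -0.55, adjusted p = 0.00372). SAMD9L, a growth-restricting antiviral factor, stood at 2.24 and 2.32 CPM and at 4.98 and 3.30 CPM (log2 fold change 0.86, adjusted p = 0.00831). Of the 4 calls, 3 hung on single libraries. PARP9 and SAMD9L were lost without replicate 1 labelled knockout (adjusted p = 0.0604 and 0.281). XAF1, a pro-apoptotic partner of XIAP, stood at 1.95 and 2.26 CPM and at 3.14 and 4.45 CPM (log2 fold change 0.85, adjusted p = 0.0114). Its call was lost without wild-type replicate 1 (adjusted p = 0.0607) and without replicate 2 labelled knockout (adjusted p = 0.253). RSAD2, the antiviral enzyme viperin, stood at 3.16 and 3.27 CPM and at 2.25 and 2.23 CPM. Its groups did not overlap, but at 33 to 55 reads per library the log2 fold change of -0.52 (SE 0.309) did not pass (adjusted p = 0.132). ISG20, an exonuclease, ranged from 12.1 to 13.9 CPM (adjusted p = 0.791) and PARP14, a mono-ADP-ribosyltransferase, from 15.04 to 18.1 CPM (adjusted p = 0.648) over the 4 libraries, with overlapping groups.

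The 5 genes with IFI names ranged from among the highest to nearly silent. IFI35, which pairs with NMI, stood at 1.66 and 1.88 CPM in wild-type and at 10.0 and 6.68 CPM in the libraries labelled knockout (log2 fold change 2.23, SE 0.262, adjusted p = 7.62e-12). IFI6, a small protein that protects cells from flaviviruses, stood at 71.9 and 69.7 CPM and at 42.8 and 40.2 CPM (log2 fold change -0.77, SE 0.0909, adjusted p = 8.9e-12). These 2 changes went in opposite directions with no overlap between groups. IFI44 held 9 and 9 wild-type reads and 23 and 14 in the others (log2 fold change 1.20, SE 0.524, adjusted p = 0.0377). Its call was lost when any single library was left out, with adjusted p from 0.0692 to 0.456, and with DESeq2 (adjusted p = 0.181). IFI27 held 17, 9, 9 and 6 reads and IFI44L, next to IFI44, held 0, 0, 1 and 1, and neither could be tested. A count of 0 allows up to 3 reads, or 0.172 and 0.188 CPM in the wild-type libraries, so no difference in IFI44L was detectable at this depth.

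Per length, the highest members in wild-type were ISG15 at 201 RPKM, BST2 at 107, IFI6 at 81.8, IFITM2 at 50.5 and IFITM1 at 49.0. The last 2 did not differ beyond their spread. In the libraries labelled knockout the order was ISG15 at 107, BST2 at 71.6, IFITM1 at 57.3, IFI6 at 48.0 and IFITM2 at 42.7 RPKM. The same 5 genes led in both groups. Summed over all 33 members, the level was 843 and 839 CPM in wild-type against 661 and 636 CPM in the others, a sum set largely by these abundant genes.

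The rest of the interferon pathway was read from lists of 123 further genes in the table. No interferon gene was expressed at a level that could be tested. Of 22 ligand genes 20 had 0 reads in all 4 libraries, including every interferon alpha gene listed and IFNB1, while IFNG had 3 reads in wild-type replicate 2 and IFNL1 had 1 read in replicate 2 labelled knockout. Among 9 receptor and kinase genes, 3 were higher (33.3%, against 33.7% of all genes tested) and 2 lower (22.2%, against 32.3%). IFNAR2, a chain of the type I receptor, was at -0.75 and IFNLR1, of the type III receptor, at -0.89 on the log2 scale. IFNGR1 and IFNGR2, the chains of the interferon gamma receptor, were at 0.98 and 0.54, and the kinase JAK2 at 0.65. IFNAR1, TYK2 and JAK1 stood at 35.1, 145 and 55.3 CPM in wild-type and at 37.4, 143 and 52.9 CPM in the others, and did not pass. Of the other IRF factors, 5 of 6 could be tested. IRF5, a factor of myeloid and B cells, was at 1.30, whereas IRF8, a factor of myeloid and dendritic cells, fell by 3.29 on the log2 scale, from 116 and 129 reads to 8 and 14. The median of the 5 was 0.019, with 1 higher and 1 lower, and IRF1, IRF2 and IRF3 did not pass.

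Of 10 tested adaptors and kinases of interferon induction, 3 were higher and 6 lower, with a median of -0.36. These are 30% and 60%, beside 33.7% and 32.3% of all genes tested. MYD88, the adaptor of most Toll-like receptors, was at -1.17, TICAM1, the adaptor of TLR3, at -0.99 and TRAF3 at -0.68. TBK1, the kinase of IRF3, was at 0.95, IRAK4 at 0.31 and MAVS, the adaptor of the RIG-I-like receptors, at 0.17. Of 10 negative regulators, 6 were higher and 2 lower (60% and 20%, beside the same shares of all genes), with a median of 0.32. IRF2BP2, a corepressor of IRF2, was at 1.42, the STAT inhibitor PIAS1 at 0.91 and the phosphatase gene PTPN6 at 0.81, while SOCS1, the feedback inhibitor of JAK kinases, was at -1.41 and IRF2BP1 at -0.42. PTPN6 is most abundant in blood cells.

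Further target genes also stood on both sides of 0. Of 39 tested type I targets, 12 were higher, 10 lower and 17 did not pass (median 0.08). TNFSF13B, the B cell survival factor BAFF, had 0 wild-type reads and 31 and 34 in the libraries labelled knockout, at least 24.5-fold higher when both wild-type libraries together are given 3 counts, the limit that 0 allows. BATF2 was at 2.19 and TRIM22, an antiviral ubiquitin ligase, at 1.81. EPSTI1 was at -3.00, LAMP3, a dendritic cell lysosomal protein, at -2.50, and CMPK2, the neighbour of RSAD2, at -1.48. Of 11 tested interferon gamma targets, 4 were higher and 4 lower (median -0.11). FCGR1A, the Fc receptor CD64 of myeloid cells, was at 6.32, GBP2 at 2.28 and WARS at 1.74, while GBP5 was at -2.17, GBP1 at -2.09 and ICAM1 at -0.43. FCGR1A has near-identical copies, so its count is uncertain. TNFSF13B, BATF2 and FCGR1A passed the expression filter only through the libraries labelled knockout, and GBP5 only through wild-type, so each could be counted in 1 direction only. The chemokine genes CXCL9, CXCL10 and CXCL11 held 0 to 4 reads per library. Over all these lists 65.9% of 88 tested genes were called, 35.2% higher and 30.7% lower, beside 66.0% of all genes.

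Of the 58 calls in these lists, 18 (9 higher and 9 lower) were lost when some single library was left out, 5 and 4 of them without wild-type replicates 1 and 2, and 12 and 14 without replicates 1 and 2 labelled knockout. Among the genes named with values, beside HERC5 and HERC6, these were JAK2 (adjusted p = 0.205 without wild-type replicate 1, 0.0589 and 0.0983 without replicates 1 and 2 labelled knockout), IRAK4 (0.184, 0.091 and 0.296 without the same libraries), MAVS (0.249 and 0.252 without replicates 1 and 2 labelled knockout) and IFNAR2 (0.0743 without replicate 2 labelled knockout). BATF2 was lost without wild-type replicate 2 or either library labelled knockout (adjusted p = 0.0679, 0.0558 and 0.0687). ICAM1 was lost without wild-type replicate 1 or replicate 1 labelled knockout (adjusted p = 0.170 and 0.160).

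**Figure D5:**
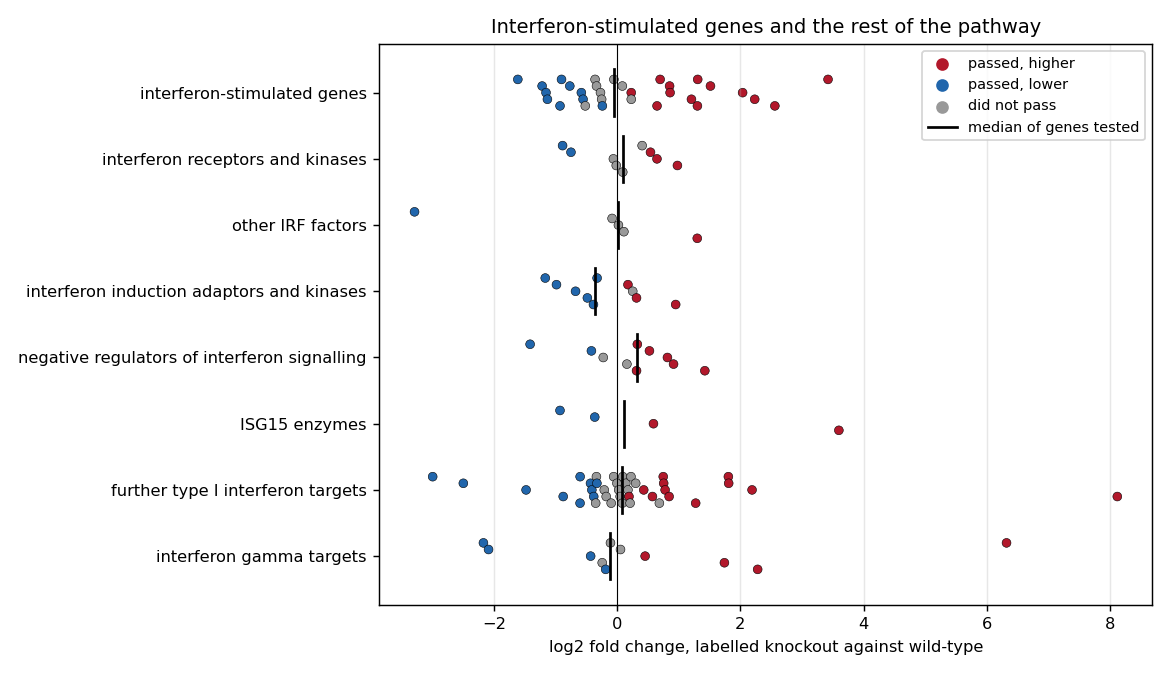
Log2 fold change of each tested gene, 1 point per gene, for the interferon-stimulated genes and 7 lists of the rest of the pathway, coloured by the test, with a vertical bar at each list's median. Every list has genes on both sides of 0, with medians between -0.36 and 0.32, and the point at 8.12 is TNFSF13B, whose fitted value rests on 0 wild-type reads and is no measured fold.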

How the data were processed

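The authors deposited 1 table of raw read counts per gene for 4 libraries, without normalization, and its 4 count columns were assigned by the short names in the samples' descriptions. Per the submitters' processing notes the tools were featureCounts 1.5.0-p3, HISAT2 2.0.5 and CASAVA 1.8, with no roles stated. For strand setting, multiply mapped reads and genome build nothing is given in the sources used here. Names, lengths and coordinates were taken from the table, whose identifiers are human Ensembl ones although mouse is the labelled organism. No human sequences were used here. Gene lengths are in bases, per the file headers.

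Counts were tested with edgeR 4.0.16 under R 4.3.3 (TMM factors 0.978 to 1.04, default filter of 10 counts and 15 in total, two-sided quasi-likelihood test, Benjamini-Hochberg adjustment over all 15294 genes, threshold 0.05, no covariate). DESeq2 1.42.0 and limma 3.58.1 (voom) served as alternatives. SE values are those of the log2 fold change. Each library counted as 1 replicate. The pairs differed by more than sampling noise (mean chi-square of 5.83 and 2.21 per gene), which cannot show whether they were separate cultures. On simulated counts, 2 against 2 over 15294 genes, 79% of 2-fold and 95% of 4-fold changes were recovered, and 2.79% of 179 calls were false. Few genes were changed there, as many up as down, all with about 10 or more wild-type reads. In the data 66.0% of genes were called, so the simulated shares do not carry over to them. Nor do they cover members with fewer wild-type reads, such as IFIT3 and IFI44.

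An item of the pathway lists is not reported here. The members and lists were chosen with earlier results of these data known. All members averaging 1 CPM or more are named with values, as are up to 3 rises and 3 falls per pathway list. IFI27, IFI44L, the neighbours RIPK4, BACE2, DTX1, RASAL1 and LIPA, and pathway genes given without a call were named after their values were seen. Alternatives were other scalings, tests, filters and thresholds, a replicate block, leaving out each library, a narrower window around each locus, and CPM in place of RPKM.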

Additional observations from a re-analysis of the deposited data

How the results depend on the processing

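Counts of members kept within 1.5 times the values above (13 higher, 10 lower) under all alternatives run, with 2 exceptions for the higher members. DESeq2's Wald test gave 8, losing IFITM1, IFIH1, SAMD9L, XAF1 and IFI44, and edgeR's test against a 1.5-fold change gave 7. That stricter test also gave 4775 genes changed (2663 higher, 2112 lower) and 15 higher and 11 lower pathway genes, in place of 10088, 5147, 4941, 31 and 27. Leaving out 1 library gave 9 to 12 higher and 8 to 11 lower members and 8018 to 10263 genes changed. Of the 23 called members, 17 to 22 were also called then. With DESeq2 size factors, upper-quartile scaling or mitochondrial genes left out, all 23 were called. No composition factor shared 21. With no expression filter the median of all genes was 0.15 and 21 of the 23 were called. Signs turned only for genes that did not pass, ISG20 (-0.12 to 0.020 with 1 library left out, 0.020 without wild-type replicate 2 and 0.0081 without replicate 1 labelled knockout) and PARP14 (-0.019 to 0.20, with -0.019 without wild-type replicate 1). The medians of neighbours ranged, with 1 library left out, from -0.045 to 0.29 for IFIT (-0.0054 without wild-type replicate 1), 0.25 to 0.38 for OAS1 to OAS3, -0.42 to -0.30 for OASL, -0.86 to -0.51 for MX and -0.62 to -0.45 for IFITM. With no filter they were -1.22 for MX and -0.45 for IFITM, and within 500000 bases -1.15 for MX. The cause of these shifts was not tested beyond the number of genes each setting leaves. The replicate block gave 12 higher and 10 lower members and 10072 genes changed, losing the member IFI44. It also lost HERC6, a gene of the pathway lists. The numbers name libraries only, since deviations of same-numbered libraries correlated at 0.026 across genes. By CPM in place of RPKM, MX2 ranked above MX1 in wild-type, the only change of order within the 4 families there. In the libraries labelled knockout IFIT3 moved from rank 2 to rank 4 of its family, OAS2 ranked above OASL, and IFITM2 above IFITM1. Depth limits IFIT1, IFIT2, IFIT3, OASL, MX1, MX2, IFIH1, IRF9, RSAD2, SAMD9L, XAF1, IFI27, IFI35, IFI44 and IFI44L. Each had 55 reads or fewer in some or all libraries.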

Other observations

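The direction of the called members differed with their level, a split chosen after the values were seen and given with no test. Of 18 tested members that averaged under 10 CPM over the 4 libraries, 10 were higher (IFIT1, IFIT2, IFIT3, OASL, IRF9, IFIH1, SAMD9L, XAF1, IFI35 and IFI44) and 2 lower (OAS1 and MX1). Of 13 members at or above 10 CPM, 3 were higher (IFITM1, STAT2 and IRF7) and 8 lower (OAS2, OAS3, IFITM2, ISG15, USP18, BST2, PARP9 and IFI6). Among all genes tested, 1912 of 6010 genes under 10 CPM were higher and 1204 lower, and at or above it 3235 of 9284 were higher and 3737 lower. IFIT3 and IFI44 could only be counted as higher, and the level and the change come from the same libraries.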
